A study of Mus musculus with 6 samples.

Results

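The 10 genes described here are the core of the oxygen-sensing pathway as it can be read at the mRNA level: the hypoxia-inducible factor (HIF) subunits Hif1a, Epas1 and Arnt, the HIF prolyl hydroxylases Egln1, Egln2 and Egln3, the ubiquitin ligase gene Vhl, and the target genes Vegfa, P4ha1 and Ankrd37. They were taken by gene name from a table of 26359 genes and loci, each name matched 1 row, and all 10 passed the filter on low counts. They were proposed with earlier results of the same comparison known, so their differences between the groups are given as a description, without a test of their own, and the mark "called" says only on which side of the threshold used for all genes a value lay.

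Poly(A) RNA was sequenced from AML12, an immortalised hepatocyte line of mouse origin, in 3 libraries labelled sh-NC and 3 labelled sh-1. The series concerns TM9SF1, a membrane protein of the endosomal and Golgi system, in liver ischemia-reperfusion injury, and names stable knockdown lines, so the labels read as a control and a knockdown hairpin. The titles call the control libraries only AML12 and the others Sh-2, so the presence of a hairpin in the control cells cannot be taken as given, and the labels give neither the promoter that drives the hairpin nor whether a line is 1 clone. No hypoxia, ischemia or other treatment is named for these libraries, and the labels do not tell whether the 3 replicates were grown apart, so every p-value rests on a spread between libraries that may be technical. Library totals ranged from 36997329 to 51334798 counts.

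HIF is a dimer of an oxygen-regulated alpha subunit (HIF-1alpha from Hif1a, HIF-2alpha from Epas1) and the constant beta subunit ARNT. With oxygen, the EGLN hydroxylases modify prolines of the alpha subunit, the VHL protein then binds it, and the proteasome degrades it, so the alpha subunit is classically controlled as a protein and not through its mRNA. When oxygen falls, the alpha subunit persists, and the dimer binds a short core sequence in DNA and raises genes of glycolysis, angiogenesis and collagen modification, among them Egln1 and Egln3, which close a feedback loop. In liver, HIF activity is known for its part in zonation, in iron and lipid handling and in ischemia-reperfusion injury.

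The groups differed over most of the transcriptome, which sets the scale for these genes. Of 13197 genes tested, 65.5% were called at an edgeR adjusted p under 0.05, 33.3% higher and 32.2% lower in sh-1. Tm9sf1, the gene named by the series, fell from 48.8 ± 4.03 to 36.2 ± 0.783 CPM (TMM-scaled counts relative to library size, SD, n = 3 each), a call that was lost (edgeR adjusted p = 0.36) in a fit that takes out, library by library, the dependence of counts on the GC content and length of the transcript. That dependence separated the groups, with GC-poor transcripts higher in sh-1. The value without it is given as the corrected value beside the 10 genes and beside some of the others. Where none is given, the printed value still carries that dependence. Of the 9 hepatocyte markers, Krt8 and Krt18 carried most of the summed level, which was 9821 to 12080 CPM in sh-NC and 6740 to 8369 CPM in sh-1. Albumin (Alb) was at only 4.43 and 2.68 CPM, and Hnf4a at 150 and 337 CPM. The summed levels of 5 cholangiocyte markers were 1822 to 2051 CPM in sh-NC and 3386 to 3831 CPM in sh-1. Spp1 alone carried that rise, from 148 to 2118 CPM, while Krt7 and Sox9 fell and Krt19 was not called. The summed levels of endothelial, macrophage and stellate cell or fibroblast markers stayed at or under 10.02 CPM in every library, with Kdr, Clec4f and Lrat at 3 counts or fewer. The part of these differences in the values below was not tested.

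Hif1a, the gene of the oxygen-regulated subunit HIF-1alpha, stood out within the set. Its level was 22.3, 16.1 and 19.5 CPM in sh-NC but 101.5, 104 and 122 CPM in sh-1. Every sh-1 library lay above every sh-NC library by a wide gap. The mean went from 19.3 ± 3.08 to 109 ± 11.0 CPM with SD over 3 libraries each, 5.66 times as high and a log2 fold change of 2.50 (SE 0.13). In bulk RNA, more cells with the transcript and more transcript per cell cannot be told apart. Hif1a lies on chromosome 12 from 73901375 to 73947530 on the plus strand (GRCm38), and its longest coding transcript has a GC content of 41.3%. The 697 other genes within 1 percentage point of that GC content had a median log2 fold change of 0.93, and 69.2% of them were called higher. After the correction the log2 fold change of Hif1a was 1.52 (SE 0.08), the largest rise of the 10. Exons of Hif1a share 330 bases (5.6% of its exon bases) with the antisense gene Gm15283, which was not analysed here. The protocol as given does not say whether strand was kept, so reads from the shared bases cannot be assigned to one strand.

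The other alpha subunit genes were less abundant than Hif1a, Epas1 by far and Hif3a by a smaller margin. Epas1, the gene of HIF-2alpha, had 62, 26 and 43 counts in sh-NC and 56, 80 and 81 counts in sh-1, or 1.5, 0.682 and 0.894 CPM against 1.34, 1.86 and 2.11 CPM. The groups overlapped, since sh-NC library 1 lay above sh-1 library 1, and the log2 fold change of 0.79 (SE 0.39) was not called. It was called after the correction (0.97, SE 0.39) and without sh-NC library 1 (1.16, SE 0.43). Hif3a, whose product includes short forms known to restrain HIF activity, is not among the 10 but belongs to the same family. It rose from 6.61 ± 0.977 to 20.9 ± 4.11 CPM (log2 fold change 1.66 with SE 0.18, adjusted p of 5.94e-06 in edgeR), and its corrected value was 1.76. Scaled for length as the authors' FPKM (fragments relative to transcript length and library size), Hif1a made up 72.8 ± 2.40% of the summed level of the 3 alpha subunit genes in sh-NC and 86.0 ± 1.74% in sh-1. Neither share was corrected for GC content, and the corrected rise of Hif1a (1.52) was smaller than that of Hif3a.

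Arnt, the gene of the beta subunit shared by all HIF dimers, did not follow Hif1a. It measured 47.2, 37.2 and 40.5 CPM in sh-NC and 36.0, 39.3 and 31.6 CPM in sh-1. The ranges overlapped, and the log2 fold change was -0.22 (SE 0.12), which was not called, although the corrected value of -0.42 (SE 0.09) was. The balance of the subunit mRNAs therefore differed. Hif1a was at 0.342 ± 0.0319 of the Arnt level (ratio of FPKM, SD, n = 3) in sh-NC and at 2.51 ± 0.30 in sh-1. In each sh-NC library Arnt exceeded Hif1a, and in each sh-1 library Hif1a exceeded Arnt. These levels were not corrected for GC content. The corrected log2 fold changes, 1.52 for Hif1a and -0.42 for Arnt, kept opposite signs. They do not give the order of levels within a library.

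**Figure D1:**
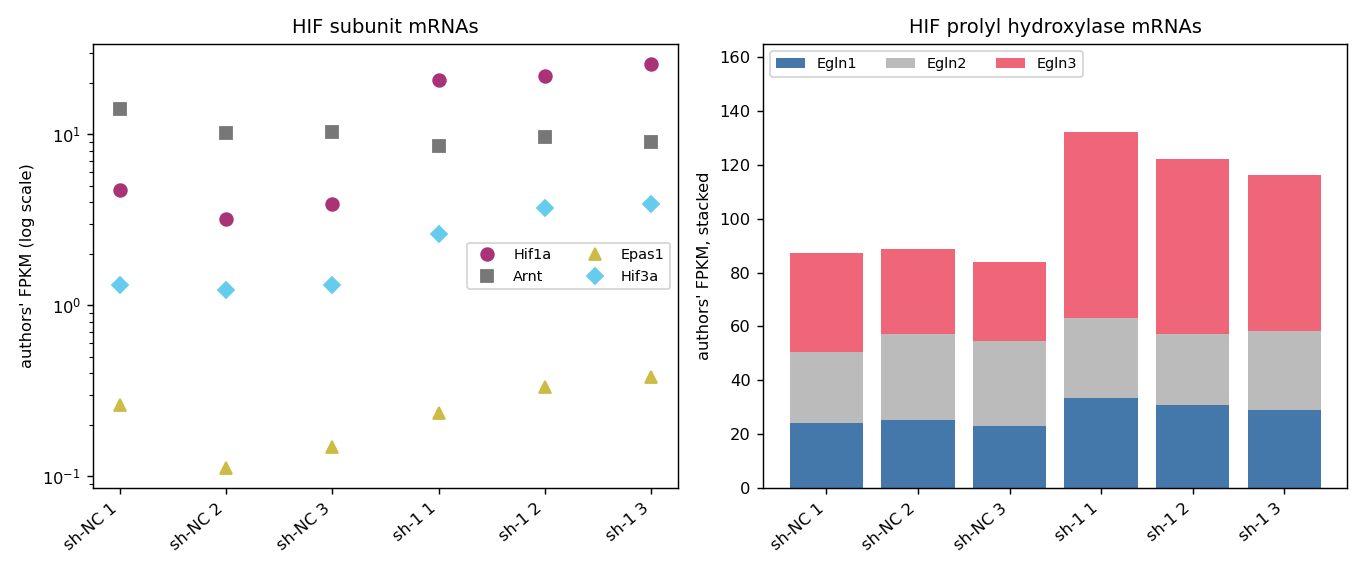
Left, length-scaled level (authors' FPKM, log axis) of the HIF subunit genes in each library. Right, stacked FPKM of the 3 HIF prolyl hydroxylase genes in each library. Hif1a lies under Arnt in all 3 sh-NC libraries and above it in all 3 sh-1 libraries, and the summed hydroxylase level is 84.0 to 88.7 FPKM in sh-NC and 116 to 132 FPKM in sh-1, with Egln3 the largest part in sh-1.

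The prolyl hydroxylase genes split, with Egln3 and Egln1 higher in sh-1 and Egln2 not called. Egln3 encodes PHD3, the most strongly hypoxia-inducible of the family. It measured 100.5, 89.7 and 85.6 CPM in sh-NC and 191, 173 and 155 CPM in sh-1. The ranges were well apart, and the mean rose from 92.0 ± 7.70 to 173 ± 18.1 CPM, a log2 fold change of 0.91 (SE 0.10) with a corrected value of 1.10. Egln1 encodes PHD2, the main hydroxylase of HIF-1alpha under normal oxygen and itself a HIF target. It measured 88.9, 97.6 and 90.5 CPM in sh-NC and 126, 111 and 105 CPM in sh-1. All sh-1 libraries were higher, but by little, and the log2 fold change was 0.30 (SE 0.09). The corrected value of Egln1 was 0.74 (SE 0.07), more than 1.5 times as large.

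Egln2 encodes PHD1, which is not known as a hypoxia-inducible gene. It measured 55.9, 70.8 and 72.0 CPM in sh-NC and 63.9, 55.9 and 61.9 CPM in sh-1. The groups overlapped through sh-NC library 1, and the log2 fold change of -0.13 (SE 0.11) was not called. Without that library it was called lower (-0.23), and after the correction it turned to a called rise (0.55, SE 0.08). At a GC content of 62.2%, Egln2 is the most GC-rich of the 10 transcripts, and the 185 genes within 1 percentage point had a median of -0.55. Its direction is therefore not settled by these counts.

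On the deposited FPKM scale, which carries the GC dependence, the hydroxylase pool was larger in sh-1 and differed in make-up. Summed over Egln1, Egln2 and Egln3, the FPKM level was 87.4, 88.7 and 84.0 in sh-NC and 132, 122 and 116 in sh-1. Egln3 supplied 37.5 ± 4.01% of that sum in sh-NC and 51.7 ± 1.73% in sh-1, while Egln2 supplied 34.7 ± 3.90% and 23.2 ± 1.92%. The share of Egln1 was 27.8 ± 0.633% and 25.2 ± 0.233%. These shares were not corrected for GC content, and they rest in part on Egln2, whose direction turned with that correction. Hif1a rose by more than the pool, from 0.0455 ± 0.00918 to 0.186 ± 0.0328 of the summed hydroxylase level. That ratio was not corrected for GC content either. The corrected log2 fold changes lay closer together, at 1.52 for Hif1a and 0.74, 0.55 and 1.10 for Egln1, Egln2 and Egln3.

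Vhl, the gene of the substrate receptor that recognises hydroxylated HIF-1alpha, was lower in sh-1. It measured 64.3, 58.8 and 60.0 CPM in sh-NC and 37.2, 37 and 33.8 CPM in sh-1. The groups were tight and far apart. The mean fell from 61.0 ± 2.91 to 36.0 ± 1.89 CPM, a log2 fold change of -0.76 (SE 0.09), and the corrected value was -0.70. The ratio of Hif1a to Vhl, on the FPKM scale and not corrected for GC content, was 0.191 ± 0.0254 in sh-NC and 1.81 ± 0.286 in sh-1. The corrected log2 fold change of Hif1a, 1.52, was smaller than the uncorrected 2.50. Vhl and Arnt moved in the direction opposite to Hif1a in value, though only Vhl was called.

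Other genes that handle the HIF proteins had no common direction. The list of HIF control genes held 25 genes, of which 24 were tested. Of these 9 were called higher (37.5%) and 7 lower (29.2%), close to the shares over all genes, with a median log2 fold change of 0.01 against -0.001 over all genes tested. Cul2 and Rbx1, which form the ligase with the VHL protein, rose by log2 1.30 (SE 0.13) and 0.64 (SE 0.10). After the correction both were at 0.31. Elob, an adaptor of that ligase, was at -0.14 and not called (0.27 and called higher after the correction), and its partner Eloc was at 0.64 before and -0.50 after the correction. Hif1an encodes FIH, the asparagine hydroxylase that blocks HIF transactivation. It fell from 248 ± 10.3 to 132 ± 11.0 CPM (log2 fold change -0.91 with SE 0.08, adjusted p of 1.37e-06 in edgeR), with a corrected value of -0.83. Hsp90aa1, which encodes a chaperone that stabilises HIF-1alpha, rose from 143 ± 42.1 to 798 ± 104 CPM (log2 fold change 2.48 with SE 0.19), while its abundant relative Hsp90ab1 fell by 0.31 on the log2 scale, a call lost after the correction. The coactivator genes Ep300 and Crebbp were at 0.02 and 0.10 and not called. Ahr, whose product also pairs with ARNT, rose by log2 1.77 (SE 0.17), and the deubiquitinase gene Usp33 by 1.09 (corrected 0.28).

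The target genes among the 10 went in both directions. Ankrd37, which encodes an ankyrin repeat protein and is a direct HIF-1 target, measured 6.14, 9.08 and 6.24 CPM in sh-NC and 15.8, 12.2 and 12.8 CPM in sh-1. All sh-1 libraries were higher, and the mean rose from 7.15 ± 1.67 to 13.6 ± 1.93 CPM, a log2 fold change of 0.93 (SE 0.19) with a corrected value of 1.01. Its exons share 57 bases with Ufsp2 and 349 bases (22.7% of its exon bases) with Lrp2bp, both on the opposite strand. Ufsp2 measured 13.1, 9.10 and 11.6 CPM in sh-NC and 25.9, 29.4 and 29.8 CPM in sh-1, and Lrp2bp had 0 to 2 counts in the sh-NC libraries, against 13 to 28 in sh-1. Since both neighbours were also higher and strand is not stated, reads of the shared bases cannot be told apart, and the level of Ankrd37 is uncertain to that extent.

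Vegfa, the gene of the main angiogenic growth factor and the best-known HIF target, was lower in sh-1. It measured 49.5, 51.1 and 47.2 CPM in sh-NC and 26.3, 26.7 and 23.7 CPM in sh-1. The groups did not overlap and each was narrow. The mean fell from 49.2 ± 1.99 to 25.6 ± 1.63 CPM, a log2 fold change of -0.94 (SE 0.10) with a corrected value of -0.80. P4ha1, the catalytic subunit gene of collagen prolyl 4-hydroxylase, fell further. It measured 163 (sh-NC library 1), 142 and 147 CPM in sh-NC and 67.8, 60.5 and 57.2 CPM in sh-1. Its mean fell from 151 ± 11.2 to 61.8 ± 5.43 CPM, a log2 fold change of -1.29 (SE 0.09) with a corrected value of -1.77. P4ha1 is GC-poor (45.7%), and the 1138 genes within 1 percentage point of it had a median of 0.39, on the other side of 0.

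**Figure D2:**
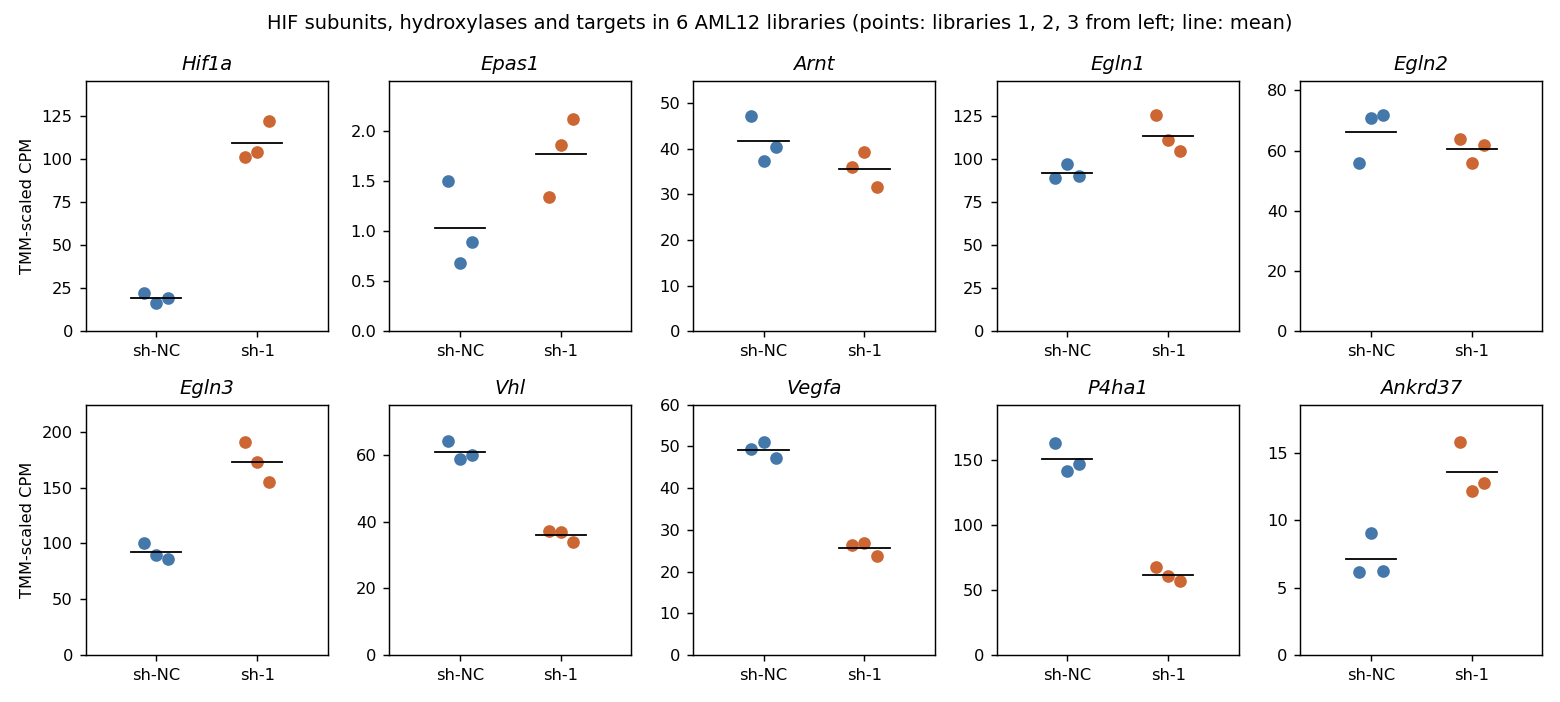
Level of each gene in every library (TMM-scaled CPM, linear axes from 0, 1 panel a gene). Points are libraries, in the order 1 to 3 from the left in each group, and lines are group means. Hif1a, Egln1, Egln3 and Ankrd37 lie higher in all 3 sh-1 libraries, Vhl, Vegfa and P4ha1 lower in all 3, and Epas1, Arnt and Egln2 overlap.

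The promoters of a pair of target genes that were higher (Ankrd37, Egln3) and a pair that were lower (Vegfa, P4ha1) are printed to show which of them hold the HIF-binding core near the start. Each window is from RefSeq on GRCm38.p6, runs from 250 bases before to 50 bases after the annotated start, and reads 5′ to 3′ along the gene. Capitals mark ACGTG or GCGTG on either strand, so a match on the other strand reads CACGT or CACGC.
Ankrd37 (chr8:45999801-46000100, minus strand): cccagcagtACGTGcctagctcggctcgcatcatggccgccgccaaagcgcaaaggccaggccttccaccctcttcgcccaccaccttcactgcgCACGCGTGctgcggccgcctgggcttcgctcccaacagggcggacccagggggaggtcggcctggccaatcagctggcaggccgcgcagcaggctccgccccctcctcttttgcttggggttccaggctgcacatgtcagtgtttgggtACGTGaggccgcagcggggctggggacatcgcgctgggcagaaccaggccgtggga
Egln3 (chr12:54203825-54204124, minus strand): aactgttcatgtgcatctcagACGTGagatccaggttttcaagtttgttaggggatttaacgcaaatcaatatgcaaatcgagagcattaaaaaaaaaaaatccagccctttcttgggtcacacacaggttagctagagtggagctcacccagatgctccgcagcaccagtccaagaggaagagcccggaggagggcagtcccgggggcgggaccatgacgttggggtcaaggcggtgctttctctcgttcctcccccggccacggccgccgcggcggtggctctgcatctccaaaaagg
P4ha1 (chr10:59323046-59323345, plus strand): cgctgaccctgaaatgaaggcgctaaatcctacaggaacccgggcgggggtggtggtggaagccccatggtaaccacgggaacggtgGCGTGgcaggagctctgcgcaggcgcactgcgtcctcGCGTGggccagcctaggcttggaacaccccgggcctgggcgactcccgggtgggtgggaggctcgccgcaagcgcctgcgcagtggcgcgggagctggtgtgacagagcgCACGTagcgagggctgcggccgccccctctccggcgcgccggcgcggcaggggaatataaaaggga
Vegfa (chr17:46032328-46032627, minus strand): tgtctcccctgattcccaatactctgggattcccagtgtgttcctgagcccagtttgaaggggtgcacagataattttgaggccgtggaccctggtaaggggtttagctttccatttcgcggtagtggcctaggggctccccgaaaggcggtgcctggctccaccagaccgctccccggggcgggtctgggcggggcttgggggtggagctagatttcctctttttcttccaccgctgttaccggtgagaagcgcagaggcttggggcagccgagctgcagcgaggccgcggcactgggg

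Ankrd37 holds ACGTG at -6 and -241 and P4ha1 at -16 (first base of the match, counted from the start), Egln3 holds it at -229, and this window of Vegfa holds neither form. The table has 11 windows for 9 of the 10 genes. ACGTG or GCGTG occurs in 9 of these windows and in 8 of the genes, against 43.8% of all 32851 windows of the same length. ACGTG alone occurs in 19.6% and GCGTG in 32.4% of all windows. Here ACGTG occurs in 7 of the 11 windows, from 7 of the 9 genes. The windows compared were not matched for GC content. Hif1a itself holds ACGTG at -70 and, within the palindrome CACGTG, at -135 and -134, where the 2 strands of one site are both counted. A second Vegfa window, at an internal start, holds both forms, and the Vhl window holds none. Ankrd37 and P4ha1, with matches close to the start in both, were called in opposite directions. A match describes these letters alone, and its absence says nothing of elements outside the window, such as the well-studied Vegfa element farther upstream.

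**Figure D3:**
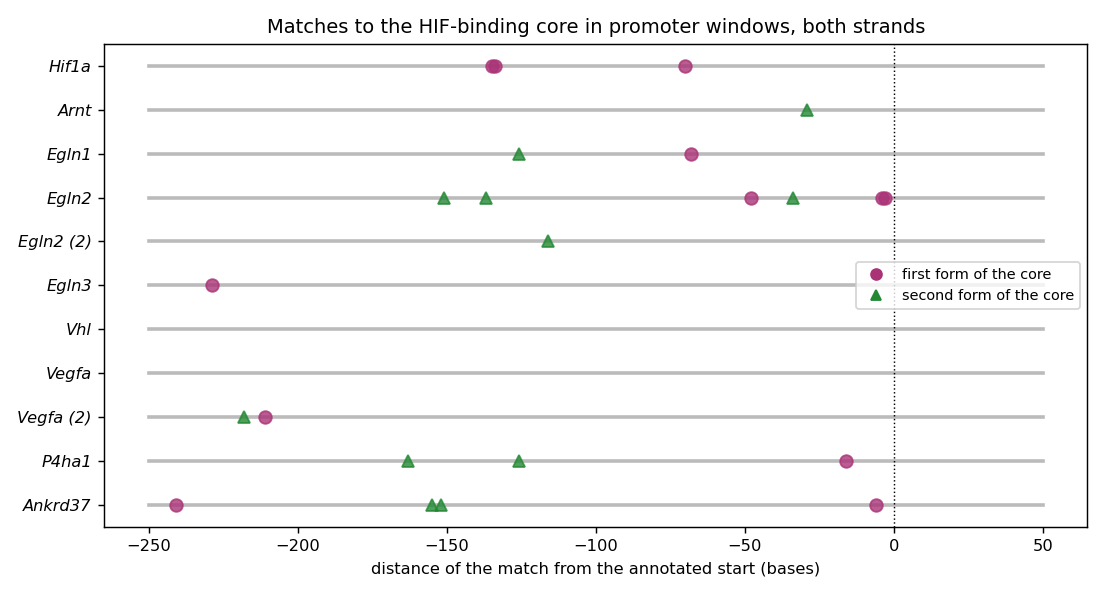
Positions of matches to the HIF-binding core (circles ACGTG, triangles GCGTG, either strand) along promoter windows of 9 genes, as distance in bases from the annotated start (dotted line). The number 2 in brackets marks a second annotated start. Matches at -6 in Ankrd37 and -16 in P4ha1 lie nearest the start among the 4 genes printed.

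Hif1a was higher in sh-1, while the target genes among the 10 lay on both sides, which is given as a description only. Of the 10 genes, 4 were called higher (Hif1a, Egln1, Egln3, Ankrd37), 3 lower (Vhl, Vegfa, P4ha1) and 3 neither, against 65.5% of all genes called (33.3% higher, 32.2% lower). The CPM values of the groups did not overlap for the 7 called genes, as for 70.3% of all genes tested (35.2% higher and 35.1% lower in sh-1). Since the same contrast was known when the genes were chosen, nothing is read from these counts. After the correction all 10 were called, 6 higher and 4 lower, where 67.6% of all genes were (32.9% higher, 34.7% lower). Among the 5 genes known as HIF targets (Egln1, Egln3, Ankrd37, Vegfa, P4ha1), 3 were higher and 2 lower before and after the correction. The libraries form 2 separate groups of 3, so no correlation of Hif1a with a target can be given across them.

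**Figure D4:**
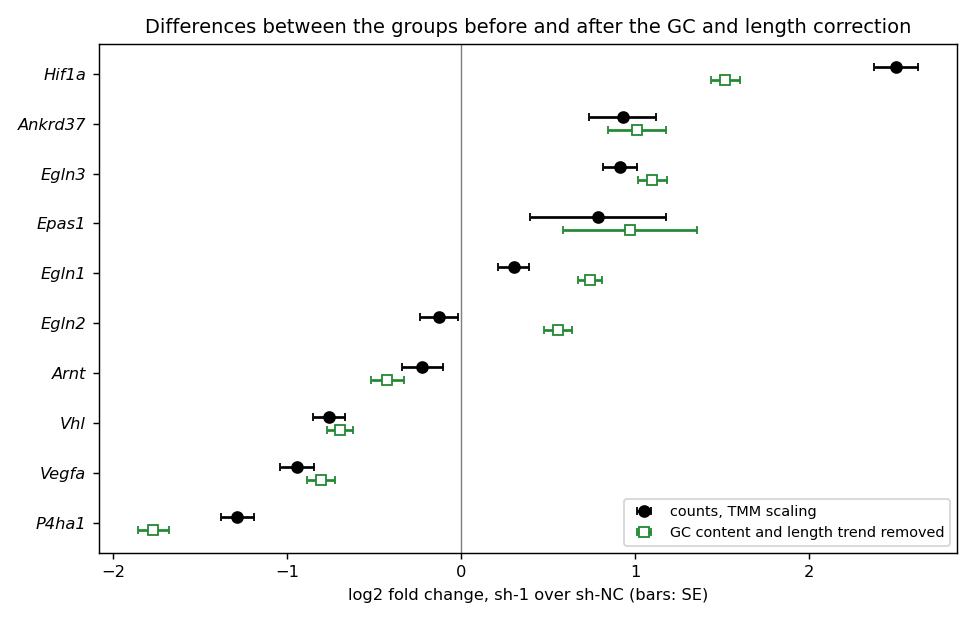
Log2 fold change of sh-1 over sh-NC for each gene, with SE as bars. Black circles are the values from TMM-scaled counts, and green squares those after the dependence on GC content and length was taken out. Hif1a moves from 2.50 to 1.52, Egln2 from -0.13 to 0.55, and the falls of Vhl, Vegfa and P4ha1 stay below 0 in both.

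The order of the levels changed with the group. On the FPKM scale, P4ha1 was the highest of the 10 in sh-NC (43.5 ± 5.32), followed by Egln3 (32.5 ± 3.86) and Egln2 (30.1 ± 3.09), whose ranges overlap, then Egln1, Vhl, Vegfa, Arnt, Ankrd37, Hif1a (3.94 ± 0.776) and Epas1 (0.173 ± 0.0777). Vegfa and Arnt were the only other neighbours in that order whose ranges overlapped. In sh-1, Egln3 led (63.9 ± 5.65), Egln1 (31.1 ± 2.32) and Egln2 (28.6 ± 1.76) overlapped, and Hif1a came next (22.8 ± 2.62), above P4ha1 (17.5 ± 1.15). P4ha1 and Ankrd37, and Ankrd37 and Vhl, also overlapped there. Arnt, Vegfa and Epas1 (0.315 ± 0.0740) followed without overlap.

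Profiles over the 6 libraries were compared as the Euclidean distance between log2 CPM values centred on each gene's mean, among 8587 other genes with a mean log2 CPM of at least 3. Closest to Hif1a were Smarca5 (0.16), a chromatin remodelling ATPase gene, Clybl (0.20), Il33 (0.23), Ascc3 (0.24) and Glis3 (0.24). Closest to Vegfa were Parp16, Ap5z1, Patz1, Atxn2l and Arhgap27, at 0.07 to 0.10. Among the closest to P4ha1 were Gpr137b, Mief1, Emp1 and Msl1, at 0.09 to 0.13. The distance from Hif1a to the target Egln3 was 2.02, at rank 1401 of these genes, and to Vegfa it was 4.26, at rank 7607. Vegfa lay 0.26 from Vhl, at rank 292, and 0.48 from P4ha1, at rank 1272. The distance takes in the size of the difference between the groups as well as its direction. These CPM values were not corrected for GC content, so a shared GC dependence enters the distance. Hif1a has a GC content of 41.3%. Smarca5, Il33 and Ascc3 were at 40.7%, 42.5% and 42.1%, and Clybl and Glis3 at 48.8% and 50.3%. Whether near profiles share a regulation was not tested.

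Glycolytic HIF targets were called higher in sh-1 more often than lower. Of 22 such genes, 20 were tested, 11 were called higher (55.0%, against 33.3% of all genes) and 2 lower (against 32.2%), and the median log2 fold change was 0.35. After the correction 15 were higher and 2 lower, with a median of 0.77. All 11 rises and 1 of the 2 falls kept their call after the correction. Gbe1, the glycogen branching enzyme gene, rose from 4.00 ± 0.393 to 39.7 ± 2.66 CPM (log2 fold change 3.31 with SE 0.13, adjusted p of 6.24e-09 in edgeR, corrected 2.48). Aldoc rose by log2 2.93 (SE 0.17), Pdk1, the kinase gene that keeps pyruvate out of mitochondria, by 1.86 (SE 0.11, corrected 1.42), Pgk1 by 1.56, Pfkfb3 by 1.10 and Pfkl by 0.60 (corrected 1.08). The glucose transporter gene Slc2a1, a classic target, fell from 148 ± 8.58 to 91.5 ± 19.1 CPM (-0.69 with SE 0.13, adjusted p of 0.000479 in edgeR, corrected -0.34). Pfkfb4 fell by 0.92 on the log2 scale, and this call was lost after the correction. Gapdh, at 145 ± 20.6 CPM in sh-NC and at 401, 153 and 345 CPM in sh-1, was called only after the correction. It has near-identical pseudogene copies, and how reads were split among them was not tested.

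Other known targets moved both ways. Of 37 genes, 34 were tested, 17 were called higher and 13 lower (38.2%), and the median was 0.38. Over all genes 33.3% were higher and 32.2% lower. The share called higher lay further above that of all genes than the share called lower did. In either direction 88.2% were called, against 65.5% of all genes. After the correction 15 were higher and 12 lower, with a median of 0.28. Of the calls made before the correction, 14 rises and 11 falls were kept. Tfrc, the transferrin receptor gene, rose from 24.1 ± 7.16 to 153 ± 10.4 CPM (log2 fold change 2.66 with SE 0.17, corrected 1.60). Nt5e, the gene of the ectonucleotidase CD73, rose from 1.30 ± 0.241 to 12.4 ± 1.75 CPM (log2 fold change 3.24 with SE 0.22), Bnip3l by 1.34 (corrected 0.45) and Fam162a by 1.26 (corrected 0.80). Bnip3, a mitophagy receptor gene, was at 0.68 before and -0.27 after the correction, and called in opposite directions. Angptl4, whose product restrains lipoprotein lipase, fell from 159 ± 3.19 to 35.0 ± 0.163 CPM (-2.18 with SE 0.08, adjusted p of 5.02e-09 in edgeR), and the heme oxygenase gene Hmox1 from 278 ± 11.7 to 89.1 ± 19.5 CPM (log2 fold change -1.64 with SE 0.13). Ndrg1 and Ero1l, both used as hypoxia markers, fell by 0.94 and 0.70 on the log2 scale (corrected -0.69 and -1.66). Car9, the most HIF-1-specific marker of the list, was near the limit of detection at 0.44 ± 0.143 and 1.08 ± 0.551 CPM (1.29 with SE 0.53, adjusted p of 0.0472 in edgeR). Over both target lists 28 of 54 genes tested were higher (51.9%) and 15 lower (27.8%), against the same 33.3% and 32.2%, and no list was chosen by how its genes moved, although earlier results of these data were known.

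**Figure D5:**
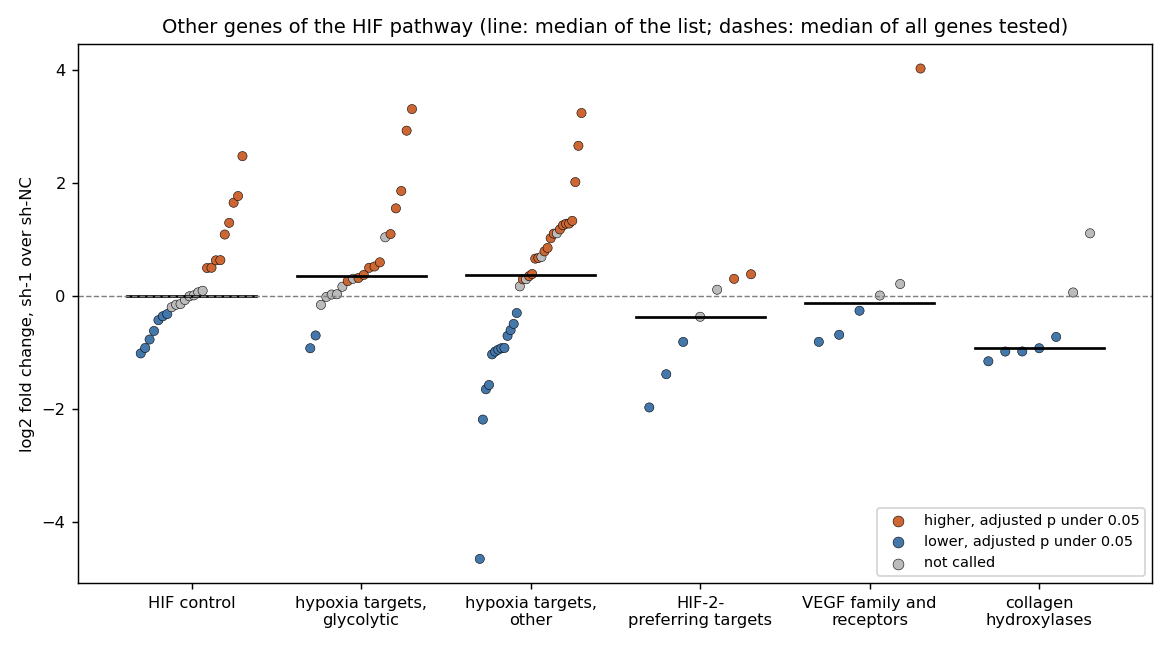
Log2 fold change of sh-1 over sh-NC for each tested gene of 6 lists of the HIF pathway, sorted within each list. Orange and blue points are genes called higher and lower and grey points were not called, bars are list medians, and the dashed line is the median of all genes tested. The collagen hydroxylases have a median of -0.92 and no gene called higher, and the glycolytic targets a median of 0.35.

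Collagen-modifying enzymes were lower along with P4ha1. Of 11 related genes, 7 were tested, 5 were called lower and 0 higher, with a median log2 fold change of -0.92, where 32.2% of all genes were lower. All 5 kept their call after the correction, at -0.19 to -0.68, but the median of the list moved to -0.45, and P3h4, at 0.07 and not called before, was called higher at 0.63. P4hb, the shared subunit of the enzyme and an abundant endoplasmic reticulum chaperone, fell from 2186 ± 62.1 to 1112 ± 86.7 CPM (log2 fold change -0.98 with SE 0.10, adjusted p of 2.42e-06 in edgeR). P4ha2, the alternative catalytic subunit gene and also a HIF target, fell from 85.2 ± 3.47 to 43.3 ± 5.45 CPM (log2 fold change -0.98 with SE 0.10). On the FPKM scale P4ha1 was at 1.20 ± 0.146 of the P4ha2 level in sh-NC and at 0.914 ± 0.0298 in sh-1. The lysyl hydroxylase genes Plod1 and Plod3 fell by 0.92 and 0.72 on the log2 scale, and the prolyl 3-hydroxylase gene P3h1 by 1.15. Plod2, the member of that family most often linked to hypoxia, was at 0.179 and 0.393 CPM and not called. P4ha2, Plod1 and Plod2 also stand in the list of other targets.

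The VEGF family and the HIF-2-preferring targets showed no shared direction. Of 6 tested VEGF ligand and receptor genes 1 was higher and 3 were lower (66.7% called, against 65.5% of all genes), and their median was -0.12. After the correction 2 were higher and 1 lower, where 67.6% of all genes were called, and the median turned to 0.15. The exception to the falls was Vegfd, a lymphangiogenic ligand gene, which rose from 0.445 ± 0.184 to 7.40 ± 0.711 CPM (log2 fold change 4.03 with SE 0.31, adjusted p of 3.42e-07 in edgeR), while Vegfc had 0 counts throughout. Nrp2 and Pgf fell by 0.68 and 0.81 on the log2 scale, the latter lost after the correction. Vegfb was at -0.25 before and 0.39 after the correction, and called in opposite directions. Nrp1 and Flt1 were at 0.22 and 0.01 and not called. Of 7 tested HIF-2-preferring targets 2 were higher and 3 lower (71.4% called, against 65.5% of all genes) with a median of -0.36, and after the correction 2 were higher and 4 lower with a median of -0.66. Irs2, the insulin receptor substrate gene, fell from 127 ± 6.00 to 32.5 ± 3.98 CPM (-1.97 with SE 0.10, adjusted p of 1.99e-08 in edgeR), and Tgfa by 0.81 on the log2 scale. Ccnd1 rose by log2 0.31, and the iron exporter gene Slc40a1 was at 0.39 before and -0.35 after the correction, called in opposite directions. Slc11a2 was at 0.12 and was called only after the correction (0.18).

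In 15 genes of these lists no library of at least one group exceeded 3 counts. Slc2a3, Epo, Vegfc, Kdr and P4ha3 stayed at or under that floor in both groups, so erythropoietin and the main VEGF receptor were not detectable at this depth. Ppp1r3c had 0 counts in every sh-NC library and 8 to 24 in sh-1, whereas Ppfia4 had 14 to 28 in sh-NC against 0 to 2 in sh-1. Ak4, Lox, Rora, Cybrd1 and P3h2 were at or under 3 counts in sh-NC and reached at most 8 in sh-1. Flt4, P3h3 and P4htm were at or under 3 counts in sh-1 and reached at most 18 in sh-NC.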

How the data were processed

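The authors deposited 1 table with raw counts per gene and with FPKM values per transcript length and sequencing depth, by the file headers and the values. The submitters' processing notes name HISAT2, StringTie and GRCm38. Their versions, and how reads were assigned to genes, were not given in the sources used here. The authors' own A against B comparison was not used, since the sources here do not say which samples it holds.

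Groups followed the cell line label. In the table, 27 gene symbols turned into dates were restored. Counts of 26359 genes were fitted in edgeR 4.0.16 (R 4.3.3) with filterByExpr, TMM scaling, the group alone and a robust quasi-likelihood test, with Benjamini-Hochberg adjustment over 13197 genes and a threshold of 0.05. CPM values are TMM-scaled, and SE follows from the F statistic. For the corrected values, the GC content and log2 length of the longest coding transcript in GENCODE M21 entered each library's fit as natural splines (5 and 4 degrees of freedom), which served as an offset, over 11956 genes. A true change shared by genes of like GC content is removed as well. Scripts were tested on simulated counts with far fewer changed genes than were called here, so that test does not cover so wide a difference.

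The genes and lists were chosen with earlier results of these data known. Named were the 10 genes, up to 6 genes of each list with the smallest adjusted p, list genes at or under 3 counts and the 5 profiles nearest to Hif1a, Vegfa and P4ha1. Other list genes were named for their role. A few genes under this rule are not reported here. Alternatives were DESeq2 1.42.0, upper-quartile scaling, no filter, limma 3.58.1 on FPKM, the correction, each library left out, and title numbers as a block.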

Additional observations from a re-analysis of the deposited data

How the results depend on the processing

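Over 14 alternatives, the numbers of genes, hypoxia targets and HIF control genes called in each direction stayed within 1.5 times the reported ones. Hif1a, Egln3, Ankrd37, Vhl, Vegfa and P4ha1 kept their direction and their call in all of them. The log2 fold change of Hif1a was 1.52 with the GC and length trend removed and 2.28 to 2.57 under the other scalings, filters and tools. Without one library at a time it was 2.39 to 2.62, with 24 to 28 hypoxia targets higher and 14 to 15 lower. Egln2 reversed, to 0.55, with the trend removed. The cause was not tested. Removing the trend brought Arnt (-0.42) and Epas1 (0.97) past the threshold, and leaving out sh-NC library 1 did so for Epas1 (1.16) and Egln2 (-0.23). Epas1 was under the filter on FPKM. With the number at the end of the titles as a replicate block, 3842 genes were higher and 3623 lower, Hif1a was at 2.57, and Egln1 was no longer called (0.21). Only the numbers 2 and 3 occur in both groups, and libraries that share one did not deviate together (correlations of 0.03 and -0.05), so the numbers do not pair the libraries. Upper-quartile scaling moved the median of all genes by 0.068 on the log2 scale, more than any other. Depth limits Epas1, with 26 to 81 counts a library, most.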

Other observations

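The counts and the authors' FPKM values gave Arnt the same direction and no call, but the transcript length they implied varied between libraries. The transcript length implied by both (CPM over FPKM) was 3354, 3551 and 3663 bases in sh-NC and 4216, 4249 and 3622 bases in sh-1, a ratio of group means of 1.14. Over 9271 genes at 1 FPKM or more in every library the median ratio was 1.01, and 5 to 95% of the genes lay between 0.986 and 1.12. The groups overlapped, because sh-1 library 3 lay with the sh-NC libraries. P4ha1 had a ratio of 1.07 (3319 to 3414 bases in sh-NC, against 3607 to 3638) with no overlap, and Hif1a one of 1.03. For the other 7 genes the ratio was between 1.00 and 1.03. These are values with no test, and FPKM assigned per transcript would move with the mix of transcripts.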
